A study of Mus musculus with 24 samples.

Results

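RNA-seq counts of 8 libraries of mouse embryonic stem cells (mESCs) were used to set the response to loss of BPTF against the response to loss of WSTF. The members are the 2 bptf knock-out libraries (BptfΔ) and 2 wild-type (WT) libraries of batch C, and the 2 wstf knock-out libraries (WstfΔ) and 2 WT libraries of batch A, out of 24 libraries in the series. They were chosen because these 2 lines had the largest responses among the deletion lines. All cells were untreated mESCs of 129S6/SvEvTac background, grown on gelatin in serum with leukemia inhibitory factor. The lines were derived from the WT cells with CRISPR–Cas9, and each is represented by 1 clone. The WT groups carry no deletion. Each line was measured in 1 batch only, beside WT libraries of that batch, so a batch can be told apart from a line only through the WT libraries, and a clone cannot be told apart from its deletion. The comparisons of the lines with WT share no library.

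BPTF is the largest subunit of NURF, an ISWI chromatin remodeler in which an ATPase, SNF2H or SNF2L, slides nucleosomes. BPTF also carries domains that read modified histone tails. WSTF, the product of Baz1b, pairs with SNF2H in the WICH complex, which is best known at replicating chromatin. mESCs in serum are a mixed population, in which some cells drift towards primitive endoderm or towards the formative state that precedes germ layer formation.

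The measure used throughout is the difference of 2 changes: the log2 fold change of BptfΔ against batch C WT, minus that of WstfΔ against batch A WT. A positive value means that the change in BptfΔ lay above that in WstfΔ. A gene was called where the absolute log2 value was over 1 and the adjusted p under 0.01. Rose and fell are used only of genes called in the line named, and levels are CPM after TMM scaling (normalised CPM, reads of a gene relative to the scaled library total), not corrected for gene length. The 8 libraries held between 13417755 and 24711280 counts, with the WstfΔ libraries the smallest. The libraries of each group differed by 1.38 to 4.58 times the sampling noise of counting, so none is a copy of another. The p-values measure the spread between replicate libraries of 1 clone. The summed level of 8 embryonic stem cell markers lay between 3276 and 4744 normalised CPM in every library.

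Both deletions showed at the targeted genes. Baz1b mRNA, on chromosome 5 from 135187323 to 135246131 in mm10, was at 243 and 269 normalised CPM in batch A WT and at 46.1 and 50.8 in WstfΔ. In batch C it was at 286 and 287 in WT and at 302 and 285 in BptfΔ. Only the WstfΔ libraries were low. Bptf mRNA, on chromosome 11 from 107033081 to 107132147, was at 301 and 320 in batch C WT, 81.6 and 77.5 in BptfΔ, 281 and 322 in batch A WT and 265 and 266 in WstfΔ. The differences of the changes were 2.43 (SE 0.12, adjusted p = 7.39e-15) for Baz1b and -1.78 (SE 0.15, adjusted p = 9.89e-10) for Bptf.

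Beyond the deleted genes, the ISWI genes Smarca1 and Cecr2 were called in the difference. Smarca1, which encodes SNF2L, was at 53.7 and 50.6 normalised CPM in batch C WT and 17.4 and 18.8 in BptfΔ, against 41.5 and 43.4 in batch A WT and 30.5 and 31.5 in WstfΔ. It fell in BptfΔ (log2 -1.53, SE 0.091), and its difference was -1.07 (SE 0.13, adjusted p = 2.03e-07). Cecr2, whose product partners SNF2L in the CERF complex, was at 120 and 122 in batch C WT and at 42.9 and 39.3 in BptfΔ, whereas batch A WT had 119 and 123 and WstfΔ 137 and 137. Its difference was -1.74 (SE 0.13, adjusted p = 4.2e-11). Baz1a, of the ACF complex, fell in BptfΔ (log2 -1.74, SE 0.071) with a log2 value of -0.83 in WstfΔ, and its difference of -0.91 was not called because it was under the fold minimum. Smarca5, which encodes SNF2H, and Ctcf differed by -0.23 (SE 0.11, adjusted p = 0.102) and 0.14 (SE 0.079, adjusted p = 0.185). Of the 14 ISWI genes tested, 3 were called lower and 1 higher in the difference, the deleted Bptf and Baz1b among them, against 8.09% called over all genes.

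In size, the response of BptfΔ was the wider by calls and by fitted change. In BptfΔ 2171 of 15682 genes tested were called (13.8%), 824 up (5.25%) and 1347 down (8.59%). In WstfΔ 1638 were called (10.4%), 607 up (3.87%) and 1031 down (6.57%). The median absolute log2 change over all genes was 0.37 in BptfΔ and 0.31 in WstfΔ, and the values exceeded by 1 gene in 10 were 1.64 and 1.37. Over the 10646 genes with a mean of at least 100 counts, the medians were 0.28 and 0.23. Among genes that fell, 30.4% in BptfΔ and 22.6% in WstfΔ had a fitted drop of more than 8-fold. Both libraries of the line held at most 3 counts in 302 of the genes that fell in BptfΔ and 187 of those that fell in WstfΔ.

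Between the lines, 1269 genes were called in the difference (8.09% of those tested), 538 with the change in BptfΔ above that in WstfΔ (3.43%) and 731 below it (4.66%). Most genes that changed in both lines changed alike: 555 fell and 258 rose in both, and the difference was called for 100 and 34 of these. The largest class was 385 genes that fell in BptfΔ alone, with a median difference of -1.91, or -1.86 with groups of at most 3 counts set to their bound. A further 199 rose in BptfΔ alone, 153 fell and 104 rose in WstfΔ alone, and 253 were called in neither line although their difference was. Among genes that moved the same way, 88 fell further in BptfΔ (median difference -2.38, or -2.03 with bounds) and 12 in WstfΔ, whereas 28 rose further in BptfΔ and 6 in WstfΔ. There were 41 genes (0.261%) that were called in opposite directions, 24 up in BptfΔ and down in WstfΔ and 17 the reverse. This count was 19 without a batch term and 4 in a test against a 2-fold change. Here alone means that the call, not the change, is missing in the other line. The plot of the changes shows these classes around the diagonal of equal response.

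**Figure D1:**
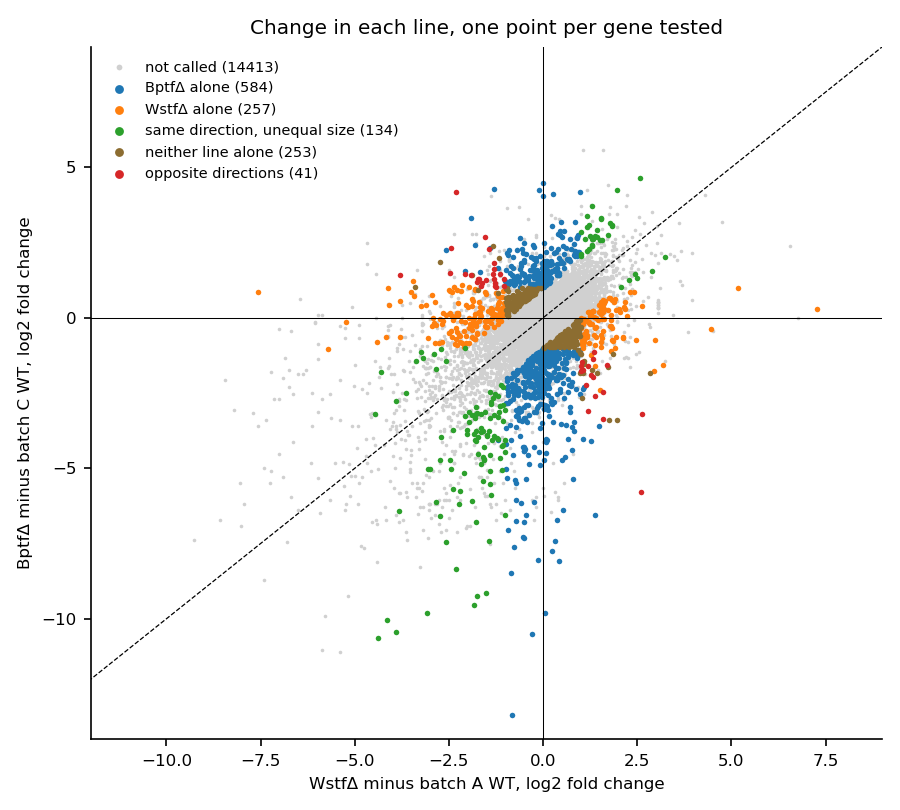
Each point is a gene, with its log2 fold change in WstfΔ on the horizontal axis and in BptfΔ on the vertical axis, coloured by class, and the dashed diagonal marks equal changes. The 41 genes called in opposite directions lie to the upper left and lower right, and the deepest drops lie below the diagonal, in BptfΔ.

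The WT libraries of the batches differed at 1165 genes (7.43%), of which 352 were higher (2.24%) and 813 lower (5.18%) in batch C. Of the 1269 genes called in the difference, 184 (14.5%) were among them. In 127 of these the WT shift had the opposite sign to the difference, and in 57 the same sign. The WT levels enter the difference with the opposite sign, so an excess of opposite signs is partly built in. The same holds for WT shifts by class. The batches also differed in RNAs without a poly(A) tail, such as histone mRNAs: the 34 tested summed to 18.6 and 16.8 normalised CPM in batch A WT and 27.1 and 27.8 in WstfΔ, but to 7619 and 7386 in batch C WT and 9646 and 10401 in BptfΔ, and 33 were called higher in batch C WT. The part of this in the other WT differences was not tested. The share of genes called between the WT groups was uneven between classes. Among the 153 genes that fell in WstfΔ alone, 49 (32%) were lower in batch C WT, against 17 of the 385 (4.42%) that fell in BptfΔ alone. Of the 24 genes up in BptfΔ and down in WstfΔ, 7 (29.2%) were, and of the 17 of the reverse 0. A direct comparison of BptfΔ with WstfΔ libraries, without a batch term, called 1341 genes (8.55%) and shared 763 of the 1269 with the same sign (60.1%), whereas 44 had the other sign there. The shared part was 331 of the 385 genes that fell in BptfΔ alone and 49 of the 153 that fell in WstfΔ alone. It was 17 of the 24 genes up in BptfΔ and down in WstfΔ and 15 of the 17 of the reverse. The part of the WT levels in these classes was not tested.

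**Figure D2:**
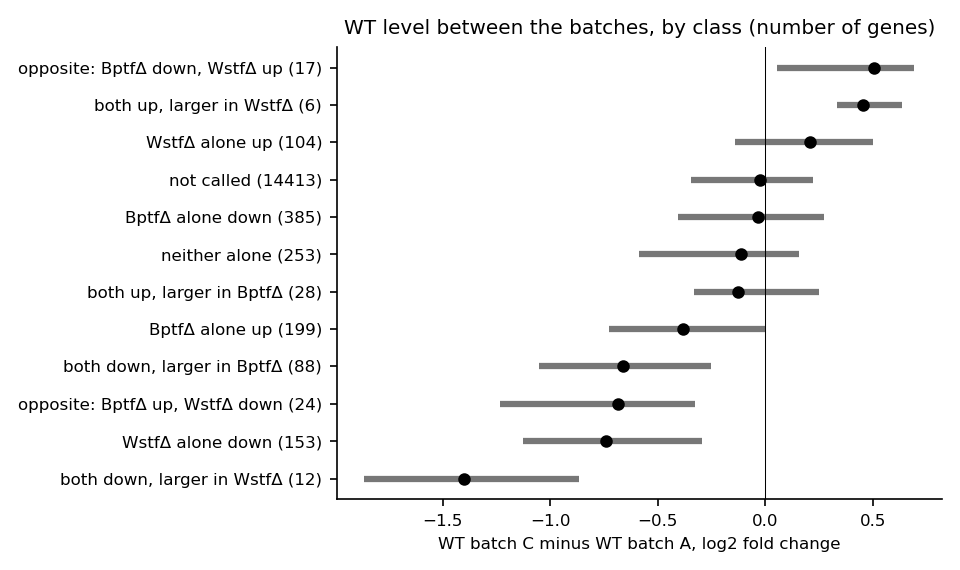
Points are the median log2 fold change of batch C WT against batch A WT in each class of genes and bars its quartiles, with the number of genes in parentheses. The median was -1.40 for genes that fell further in WstfΔ, -0.74 for genes that fell in WstfΔ alone and -0.03 for genes that fell in BptfΔ alone. The WT groups are part of the difference that sets the classes.

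Genes called in opposite directions are described first. Tex13b, a testis-expressed gene on chromosome X from 140808307 to 140813433, was at 2.43 and 2.33 normalised CPM in batch A WT, 0.289 and 0.659 in WstfΔ, 2.89 and 2.80 in batch C WT and 51.2 and 53 in BptfΔ. It thus rose in BptfΔ by 4.19 (SE 0.18) and fell in WstfΔ (-2.32, SE 0.39) on the log2 scale, a difference of 6.51 (SE 0.40, adjusted p = 1.41e-12). Kdr, the VEGF receptor that marks early mesoderm and endothelium, was at 2.15 and 1.68 in batch A WT, 0.650 and 0.659 in WstfΔ, 1.78 and 1.98 in batch C WT and 11.4 and 12.6 in BptfΔ. Its WT levels overlapped, and each line lay on its own side of them (difference 4.22, SE 0.39, adjusted p = 2.6e-09). Kcnk2, a potassium channel gene, was at 1.99 and 2.07 in batch A WT, 0.217 and 0.512 in WstfΔ, 1.10 and 1.05 in batch C WT and 3.29 and 2.72 in BptfΔ (difference 3.94, SE 0.49). Aspa, which encodes aspartoacylase, was at 1.10 and 1.23 in batch C WT and 3.17 and 3.06 in BptfΔ, and it was at least 7.3-fold lower in WstfΔ, where both libraries held at most 3 counts, than in batch A WT at 1.68 and 1.51. Btn1a1, a butyrophilin gene, was at 1.76 and 1.42 in batch A WT, 0.217 and 0.366 in WstfΔ and 0.898 and 0.809 in BptfΔ. In batch C WT it was at 0.157 and 0.175, at or under 3 counts, so both lines lay within the range of WT libraries. Other genes of this direction included Tbx20, a heart transcription factor (difference 3.71, SE 0.34), Itga8, an integrin (2.96, SE 0.29), and Casp8, the initiator caspase (2.33, SE 0.20). Tgfbr2, the type II TGF-β receptor, was at 10.2 and 9.65 in batch A WT, 4.48 and 3.59 in WstfΔ, 4.57 and 4.20 in batch C WT and 13.7 and 13.7 in BptfΔ (difference 2.94, SE 0.28). Its WstfΔ values overlapped those of batch C WT, which was called lower than batch A WT (log2 -1.18), and the direct comparison of the lines was not called.

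In the reverse direction, Lefty2, a secreted Nodal antagonist and target on chromosome 1 from 180893108 to 180899107, was at 40.3 and 41.2 normalised CPM in batch C WT and 4.19 and 3.70 in BptfΔ. It was at 22.1 and 21.4 in batch A WT and 67.1 and 65.0 in WstfΔ. The line values lay below and above all 4 WT values (difference -4.97, SE 0.13, adjusted p = 2.2e-20). Arhgap30, a GTPase-activating protein gene, was at 9.93 and 9.78 in batch A WT, 22.3 and 22.5 in WstfΔ, 9.82 and 10.7 in batch C WT and 1.14 and 1.27 in BptfΔ (difference -4.26, SE 0.24). Piwil4, of the piRNA pathway, was at 5.90 and 6.93 in batch A WT, 18.9 and 19.8 in WstfΔ, 8.61 and 6.94 in batch C WT and 1.56 and 1.27 in BptfΔ (difference -4.06, SE 0.23). Pdyn, which encodes prodynorphin, rose in WstfΔ from 0.598 and 0.732 to 3.97 and 4.32, and it was at least 7.82-fold lower in BptfΔ than in batch C WT at 1.42 and 1.34. Fgg, the fibrinogen gamma chain, was low throughout, at 0.239 and 0 in BptfΔ and 1.52 and 1.10 in WstfΔ (difference -4.00, SE 0.77). Of the 24 genes up in BptfΔ and down in WstfΔ, 17 had a group mean outside all 11 WT libraries of the series in BptfΔ and 17 in WstfΔ. Of the 17 of the reverse, 16 and 12 did. Among genes not called in the difference, 44.1% did in BptfΔ and 28.1% in WstfΔ. The 11 include the WT libraries against which these genes were called, so such counts are partly set by the calls. The plot of single libraries shows the 10 genes.

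**Figure D3:**
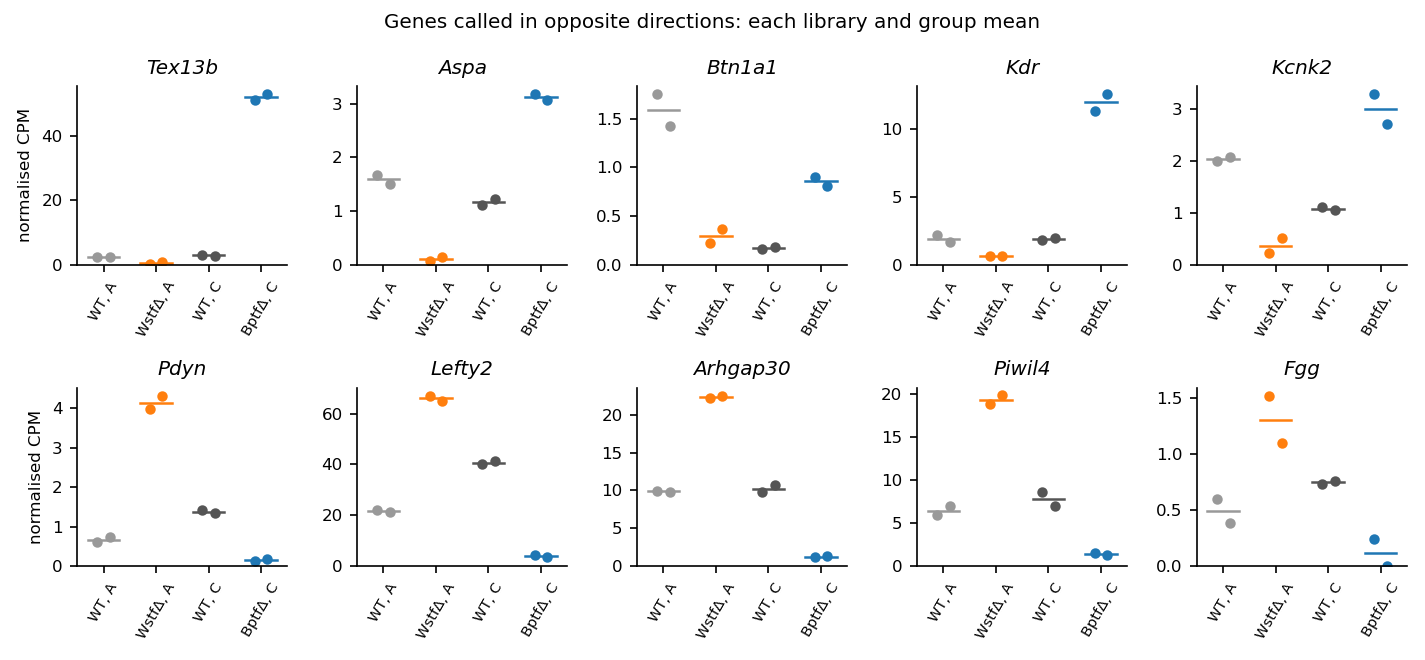
Points are the 2 libraries and lines the mean of each group, in normalised CPM on a linear axis from 0, for 5 genes that rose in BptfΔ and fell in WstfΔ (upper row) and 5 of the reverse (lower row). The WT groups of Kdr and Arhgap30 sit at the same level between the lines, whereas Btn1a1 had a lower level in batch C WT than in batch A WT.

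RefSeq promoter windows (GRCm38.p6, 250 bases before to 50 after a start, on the gene's strand) are printed for the genes among these 10 with a single window, of which Tex13b, Aspa and Kdr rose in BptfΔ and fell in WstfΔ and Arhgap30 and Fgg did the reverse. CpG dinucleotides are in capitals. Tex13b lies on the minus strand at chrX:140813384-140813683, Aspa on the minus strand at chr11:73324588-73324887, Kdr on the minus strand at chr5:75978406-75978705, Arhgap30 on the plus strand at chr1:171388710-171389009 and Fgg on the plus strand at chr3:83007474-83007773.
Tex13b: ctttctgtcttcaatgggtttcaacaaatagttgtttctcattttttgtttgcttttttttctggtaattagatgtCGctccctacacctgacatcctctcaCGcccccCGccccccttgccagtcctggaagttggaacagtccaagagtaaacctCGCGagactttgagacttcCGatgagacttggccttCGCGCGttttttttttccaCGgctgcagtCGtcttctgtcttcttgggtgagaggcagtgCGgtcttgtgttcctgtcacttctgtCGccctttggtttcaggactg
Aspa: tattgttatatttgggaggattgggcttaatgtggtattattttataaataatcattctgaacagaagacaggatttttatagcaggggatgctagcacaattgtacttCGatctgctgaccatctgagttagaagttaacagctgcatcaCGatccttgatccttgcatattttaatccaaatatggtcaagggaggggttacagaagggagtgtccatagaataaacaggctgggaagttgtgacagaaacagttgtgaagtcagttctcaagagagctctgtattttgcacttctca
Kdr: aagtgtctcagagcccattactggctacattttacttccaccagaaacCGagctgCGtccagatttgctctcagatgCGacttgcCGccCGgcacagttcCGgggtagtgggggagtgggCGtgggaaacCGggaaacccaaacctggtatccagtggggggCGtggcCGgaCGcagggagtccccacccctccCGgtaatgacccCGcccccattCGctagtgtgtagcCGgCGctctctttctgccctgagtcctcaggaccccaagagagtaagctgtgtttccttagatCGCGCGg
Arhgap30: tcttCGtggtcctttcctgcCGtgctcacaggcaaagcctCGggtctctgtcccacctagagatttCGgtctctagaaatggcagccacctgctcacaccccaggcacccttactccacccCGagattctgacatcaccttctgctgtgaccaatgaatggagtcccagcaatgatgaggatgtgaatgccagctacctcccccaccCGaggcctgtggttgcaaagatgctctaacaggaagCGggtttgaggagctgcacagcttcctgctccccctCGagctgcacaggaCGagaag
Fgg: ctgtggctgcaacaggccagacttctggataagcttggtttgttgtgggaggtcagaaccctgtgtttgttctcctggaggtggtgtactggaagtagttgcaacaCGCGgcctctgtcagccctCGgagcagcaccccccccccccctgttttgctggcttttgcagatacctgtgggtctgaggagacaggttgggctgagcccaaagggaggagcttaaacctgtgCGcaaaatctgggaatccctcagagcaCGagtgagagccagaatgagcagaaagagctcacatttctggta

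Tex13b and Kdr, which rose in BptfΔ, held 13 and 19 CpGs, Aspa held 2, and Arhgap30 and Fgg, which rose in WstfΔ, held 9 and 5. Windows matched 21 of the 24 genes up in BptfΔ and 15 of the 17 up in WstfΔ. The ratio of observed to expected CpG had a median of 0.678 over 32 windows of genes up in BptfΔ and 0.370 over 18 windows of genes up in WstfΔ, against 0.721 over the windows of all genes tested and 0.384 over all 32851 windows of the table. The letters TATAAA, searched on both strands with overlapping matches allowed, were in 1 of the 32 and 2 of the 18, against 7.56% of the windows of genes tested and 13.6% of all windows. The core consensus of CTCF was in none of them, against 0.699% and 0.557%. Of the genes tested, only 12223 of 15682 had a window, fewer than 80%, so a comparison of promoters over the classes is void.

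Primitive endoderm is the extraembryonic layer that lines the yolk sac. Of 19 genes of this layer tested, 16 fell in BptfΔ and 10 in WstfΔ, and 10 were called lower and 2 higher in the difference. Over all genes 8.59% fell in BptfΔ, 6.57% fell in WstfΔ, and 4.66% were called lower and 3.43% higher. The median difference was -1.15 against 0.03 over all genes, and 8 of the 19 were called lower in batch C WT than in batch A WT (5.18% over all genes). Fewer cells of a type and less RNA per cell cannot be told apart in bulk libraries. Gata4, a lineage transcription factor, was at 97.1 and 100.3 normalised CPM in batch A WT, 30.1 and 35.1 in WstfΔ, 38.3 and 37.2 in batch C WT and 2.93 and 2.60 in BptfΔ. Gata6 followed the same order, from 29.4 and 27.3 to 10.8 and 9.44 in WstfΔ, and from 12.5 and 14.7 to 1.14 and 0.693 in BptfΔ. Both fell in both lines, further in BptfΔ (differences -2.17, SE 0.23, and -2.40, SE 0.29), and both were called lower in batch C WT. Sox17, of the same network, had a difference of -3.56 (SE 0.45, adjusted p = 6.1e-07).

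Cubn and Sparc, the called members of the list with the largest negative and positive difference, were named by the rule, and the other members after their values were seen. Cubn, the gene of the endocytic receptor cubilin, was at 77.5 and 121 in batch A WT, 78.7 and 90.4 in WstfΔ, 90.1 and 114 in batch C WT and 1.56 and 1.33 in BptfΔ. Only BptfΔ stood apart, and the WT groups overlapped (difference -5.91, SE 0.37, adjusted p = 2.22e-12). Lrp2, its partner megalin, was at 262 and 311 in batch C WT and 9.34 and 8.20 in BptfΔ (difference -4.04, SE 0.29). Amn, which anchors cubilin, was at 5.30 and 4.61 in batch C WT and 0.599 and 0.231 in BptfΔ, with log2 values of -3.58 in BptfΔ and 0.62 in WstfΔ, the latter not called. Dab2, their adaptor, was at 100.5 and 102 in batch A WT, 60.5 and 61.5 in WstfΔ, 41.3 and 42.5 in batch C WT and 1.02 and 0.982 in BptfΔ (difference -4.65, SE 0.20), and it was called lower in batch C WT. Hnf4a, a visceral endoderm transcription factor, fell in BptfΔ (-3.77, SE 0.50), with 0.82 (SE 0.25, not called) in WstfΔ. The 2 members called higher were the basement membrane genes Lamc1 (1.0, SE 0.14) and Sparc (1.01, SE 0.073). Sparc fell in WstfΔ from 1475 and 1424 to 591 and 578, but batch C WT was at 567 and 555, and its call was lost without replicate 1 of batch A WT, replicate 2 of WstfΔ or replicate 2 of BptfΔ (difference 0.99, 1.0 and 0.99).

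The glycolysis and hypoxia genes, which HIF factors drive when oxygen is short, had medians on opposite sides of 0 in the lines. Of 28 tested, 7 fell and 2 rose in BptfΔ, 2 fell and 4 rose in WstfΔ, and 7 were called lower and 0 higher in the difference. Over all genes 8.59% fell and 5.25% rose in BptfΔ, 6.57% fell and 3.87% rose in WstfΔ, and 4.66% were called lower in the difference, so the 2 members that rose in BptfΔ and the 2 that fell in WstfΔ are near the share of all genes. The median was -0.39 in BptfΔ and 0.33 in WstfΔ. Egln3, an oxygen-sensing hydroxylase, was at 17.1 and 15.3 normalised CPM in batch A WT, 55.6 and 50.1 in WstfΔ, 11 and 9.69 in batch C WT and 3.89 and 3.12 in BptfΔ. The lines lay on opposite sides of all WT values, and the gene was called in both (difference -3.27, SE 0.18, adjusted p = 1.48e-13). Slc2a1, the main glucose transporter, rose in WstfΔ from 368 and 352 to 756 and 692, and was at 229 and 224 in batch C WT and 147 and 155 in BptfΔ (difference -1.60, SE 0.085). Pdk1, which holds pyruvate back from mitochondria, fell in BptfΔ from 224 and 218 to 78.2 and 76.9, and in batch A it was at 173 and 169 in WT and 181 and 175 in WstfΔ (difference -1.57, SE 0.078). Bnip3, a mitophagy receptor, differed by -2.69 (SE 0.27), Aldoc, an aldolase, by -1.5 (SE 0.17), Pfkl, a phosphofructokinase subunit, by -1.37 (SE 0.093) and Ldha, lactate dehydrogenase A, by -1.29 (SE 0.078). Of the other members, Hk1 rose in both lines. The 44 oxidative phosphorylation genes tested had 0 calls in the difference by edgeR and by DESeq2, and 0 in either line by edgeR. In the difference 14 of them had an unadjusted p under 0.05, against 6442 of all 15682 genes.

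**Figure D4:**
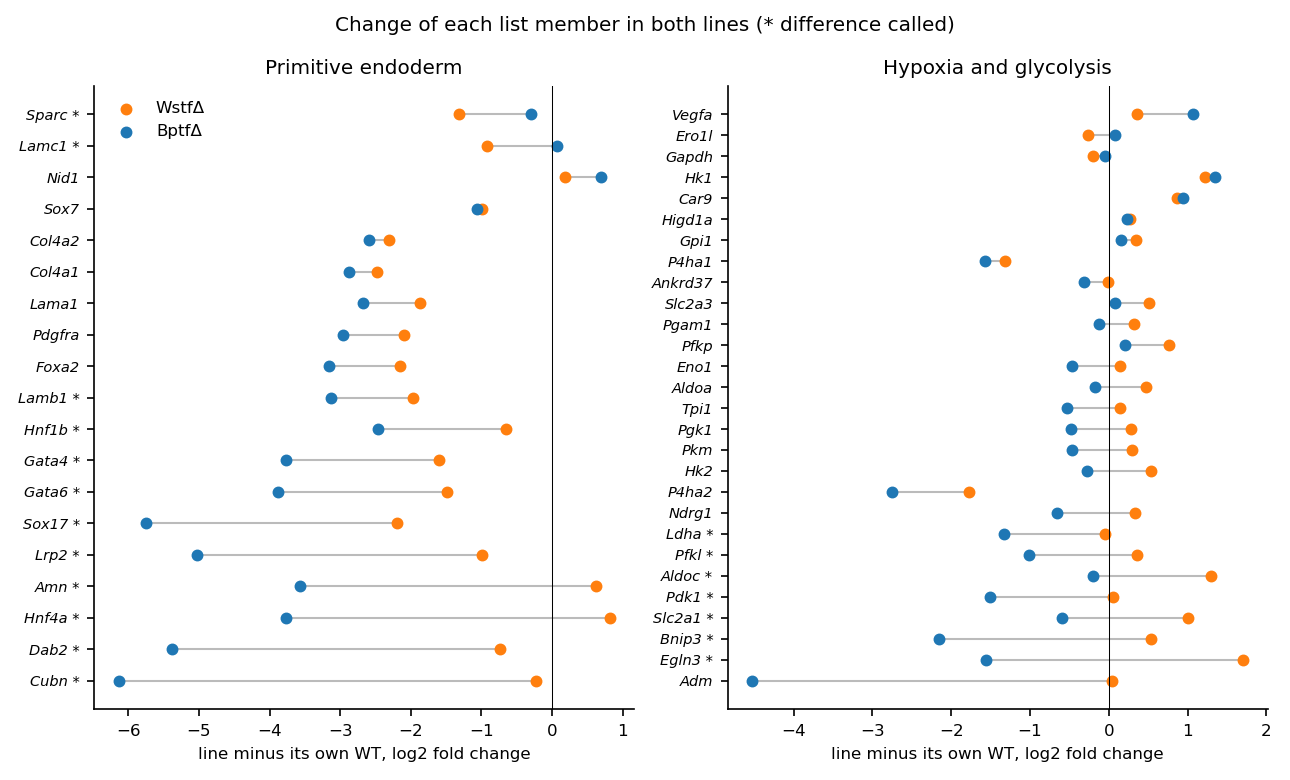
Each row is a gene of the list, with its log2 fold change against its own WT in WstfΔ (orange) and BptfΔ (blue), ordered by the difference, and an asterisk marks genes called in the difference. The 10 primitive endoderm genes called lower have BptfΔ far to the left, and all 7 glycolysis and hypoxia genes called have BptfΔ left of WstfΔ.

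Nodal and BMP are TGF-β family signals that pattern the early embryo. Of 18 target genes tested, 6 were called lower and 2 higher in the difference (4.66% and 3.43% over all genes), with a median of -0.44. Lefty1, next to Lefty2 and alike in sequence, so that reads may be shared, was at 45.9 and 44.9 normalised CPM in batch C WT and 5.21 and 5.14 in BptfΔ, and at 33.0 and 29.5 in batch A WT and 52.5 and 49.5 in WstfΔ (difference -3.84, SE 0.14). Smad7, an inhibitor of the pathway, rose in WstfΔ from 52.5 and 50.9 to 144 and 146, with 76.5 and 71.8 in batch C WT and 96.9 and 103 in BptfΔ (difference -1.06, SE 0.095). The members called higher were the BMP targets Id3, which fell in WstfΔ (-1.46, SE 0.10), and Id4, which rose in BptfΔ (2.05, SE 0.20). Nodal itself was not called.

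Wnt targets gave 5 lower and 1 higher of 18 tested (4.66% and 3.43% over all genes, so the single higher call is near that share), with a median of -0.73 (-0.39 with bounds). Dkk1, a secreted inhibitor, had a difference of -2.61 (SE 0.57), and Myc and Ccnd1, which drive growth and the cell cycle, had -1.10 and -1.02. T, the mesoderm factor Brachyury, was at 1.42 and 1.34 in batch C WT and at least 7.82-fold lower in BptfΔ, and its call was lost without replicate 2 of BptfΔ, where the fitted difference was -3.91 against -3.93. Cdx1, a posterior homeobox gene, rose in BptfΔ (1.85, SE 0.25) and was the member called higher, with batch C WT below batch A WT (log2 -1.10).

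Pluripotency genes were described by a naive and a formative list. Of 16 naive pluripotency genes, 6 rose in BptfΔ and 4 in WstfΔ (5.25% and 3.87% over all genes), 1 fell in each line, and 0 were called in the difference (median -0.030) by edgeR or DESeq2, with 10 at an unadjusted p under 0.05 (6442 of 15682 over all genes). Dppa3, a germ cell and naive state marker, was the member that fell, by log2 -4.02 in BptfΔ and -3.14 in WstfΔ. Klf4 rose in both (1.14, SE 0.089, and 1.30, SE 0.089), and Esrrb rose in BptfΔ (1.19, SE 0.062), with 0.75 in WstfΔ. Of 14 formative genes, 9 fell in BptfΔ and 7 in WstfΔ (8.59% and 6.57% over all genes), with 3 called lower and 1 higher in the difference (4.66% and 3.43%) and a median of -0.36. Dnmt3a, a de novo DNA methyltransferase on chromosome 12 from 3801559 to 3914443, was at 202 and 198 in batch A WT, 177 and 184 in WstfΔ, 187 and 182 in batch C WT and 28.1 and 31.4 in BptfΔ. All 6 libraries other than BptfΔ lay within 177 to 202 (difference -2.49, SE 0.09, adjusted p = 2.9e-17). Of 16 DNA methylation genes it was the 1 called in the difference, near the 8.09% of all genes. Sall2, a zinc finger gene, showed the reverse: it was at 34.6 and 36.0 in batch A WT, 9.97 and 9.80 in WstfΔ, 22.4 and 24.6 in batch C WT and 23.8 and 23.1 in BptfΔ (difference 1.84, SE 0.16). Pou3f1 fell in both and further in BptfΔ (difference -1.18, SE 0.23), and Sox3 fell in BptfΔ alone (difference -1.79, SE 0.40).

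Of 24 germline genes that DNA methylation holds silent, 6 were called lower and 0 higher in the difference (4.66% and 3.43% over all genes), and 11 fell in BptfΔ and 10 in WstfΔ (8.59% and 6.57%). Fkbp6, needed in meiosis, was at 0 in both BptfΔ libraries, at least 16.1-fold lower than in batch C WT at 2.99 and 2.68, and it fell in WstfΔ too (-1.52, SE 0.31). Dazl, an RNA-binding germ cell gene, was at 19.7 and 18.4 in batch C WT, 5.87 and 6.12 in BptfΔ, 15.2 and 13.5 in batch A WT and 23.1 and 18.8 in WstfΔ (difference -2.22, SE 0.18). The median difference of the list was -0.52.

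Imprinted genes split both ways, 7 higher and 6 lower of 32 tested (3.43% and 4.66% over all genes), with a median difference of 0.037. H19 fell in both lines, from 190 and 191 to 9.32 and 8.78 in WstfΔ, and at least 572-fold in BptfΔ from 99.1 and 103 in batch C WT. On chromosome 7, Cdkn1c, a cell cycle inhibitor, differed by -1.78 (SE 0.13), Slc22a18 by -1.44 (SE 0.30) and Phlda2 by -1.16 (SE 0.13), whereas Ascl2 fell in both lines with a difference of -0.09 (adjusted p = 0.885). Nnat, encoding neuronatin, was at 10.2 and 12.3 in batch A WT and 0.361 and 0.878 in WstfΔ, against 5.77 and 7.24 in batch C WT and 4.97 and 3.47 in BptfΔ (difference 3.55, SE 0.45). The noncoding Meg3 and Mirg of chromosome 12 fell in WstfΔ (-1.11 and -1.14), with -0.11 and 0.27 in BptfΔ, but Meg3 was lower and Mirg higher in batch C WT than in batch A WT.

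The contractile and YAP/SRF target genes, which respond to tension and serum, included genes that fell in each line. Of 22 tested, 13 fell in WstfΔ and 10 in BptfΔ, against 6.57% and 8.59% of all genes, with 7 called higher and 2 lower in the difference, against 3.43% and 4.66%, and a median difference of 0.60. Ccn1, a matricellular YAP target, was at 214 and 212 normalised CPM in batch A WT, 22.5 and 22.7 in WstfΔ, 67.1 and 73.0 in batch C WT and 31.5 and 31.8 in BptfΔ (difference 2.09, SE 0.11, adjusted p = 3.03e-14). The lines ended close to each other, and the WT groups started apart. Tagln, Tpm1 and Myl9, of the actin cytoskeleton, gave differences of 1.26, 1.68 and 1.96. Fosb, an immediate early gene, had 2.78 (SE 0.80), and its call was lost in 7 of the 8 fits with 1 library left out, with 2.39 without replicate 2 of BptfΔ as the lowest value. Junb, of the same family, went the other way (difference -1.45, SE 0.20). In batch C WT 10 of the 22 were called lower than in batch A WT (5.18% over all genes). The epithelial genes Krt8, a keratin (difference 2.02, SE 0.13), and Slco2a1, a prostaglandin transporter (2.51, SE 0.29), followed the pattern of Ccn1. Slco2a1 was at 68.9 and 70.8 in batch A WT, 3.76 and 3.29 in WstfΔ, 10.1 and 10.3 in batch C WT and 2.10 and 3.76 in BptfΔ.

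Of 22 ATF4 target genes of amino acid stress, 4 were called higher and 0 lower in the difference (3.43% and 4.66% over all genes), and 18 had a positive value, with a median of 0.59 (0.54 with bounds). Atf5, a transcription factor of the pathway, was at 8.19 and 7.76 in batch C WT and 54.5 and 53.1 in BptfΔ, and at 15.4 and 13.5 in batch A WT and 26.5 and 28.7 in WstfΔ (difference 1.82, SE 0.16). Ddit3 and Chac1, which act in prolonged stress, were called in neither line, with differences of 1.17 (SE 0.17) and 1.26 (SE 0.16). Atf3 fell in WstfΔ (-2.25, SE 0.13) and was lower in batch C WT. Atf4 itself, at 0.99, did not pass.

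The plot of gene lists gives the remaining groups. By edgeR, 0 genes were called in the difference among 24 cholesterol genes (13 at an unadjusted p under 0.05), 53 cytosolic ribosomal proteins (13), 14 CTCF and cohesin genes (2), 30 Polycomb genes (13), 12 two-cell-like genes (5) and 34 RNAs without a poly(A) tail (3). Over all genes 6442 of 15682 had an unadjusted p under 0.05. DESeq2 called 1 of the ribosomal proteins and none of the others. Trophectoderm genes and keratins had 2 higher of 13, collagens, laminins and integrins 3 higher and 2 lower of 36, fibroblast genes 2 higher and 1 lower of 13, neural genes 1 higher and 2 lower of 7, primitive streak and mesoderm genes 1 higher and 3 lower of 15, and Hox genes 1 higher of 14. Over all genes 3.43% were called higher and 4.66% lower. Single calls in these short lists, and the 2 lower of the collagens, laminins and integrins, are not told apart from these shares. Of the two-cell-like genes, 6 fell in BptfΔ and 0 in WstfΔ by edgeR (8.59% and 6.57% over all genes). A group held at most 3 counts per library in 10 of the 12, and the median difference was -2.48, or -0.27 with bounds. The median change was -4.65 in BptfΔ and -1.90 in WstfΔ, or -1.02 and -0.90 with bounds. p53 targets had 3 lower of 20, with Pltp, a lipid transfer protein, at -1.15. MHC class I and interferon genes had 1 lower of 18, H2-K1 at -1.55, near the 4.66% of all genes. Thy1, a surface glycoprotein used as a fibroblast marker, rose in WstfΔ from 7.38 and 7.49 to 16.0 and 14.4 and fell in BptfΔ from 5.67 and 5.14 to 1.98 and 1.91. Snai1, a mesenchymal repressor, was called in the reverse directions, from 8.18 and 9.43 in batch A WT to 4.12 and 3.15 in WstfΔ and from 1.68 and 2.16 in batch C WT to 4.43 and 4.10 in BptfΔ (difference 2.43, SE 0.27). The lines ended at like levels (direct log2 0.23, adjusted p = 0.778), within the range of the WT libraries. Neurod1 (-2.06, SE 0.20) and Nes (1.21, SE 0.14), both neural, had differences of opposite sign. Nes was lower than WT in both lines (log2 -0.85 in BptfΔ, not called, and -2.06 in WstfΔ). Batch C WT lay below batch A WT for Nes (log2 -0.95), and the lines ended at like levels (direct log2 0.27, adjusted p = 0.736). Of 41 clustered protocadherins 1 was called (8.09% over all genes), namely Pcdhb22 (difference 3.22, SE 0.70), and 4 had an unadjusted p under 0.05. Of 25 genes of the Williams syndrome region, which holds Baz1b, 1 was called higher, Baz1b itself, and 1 lower, Fkbp6.

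**Figure D5:**
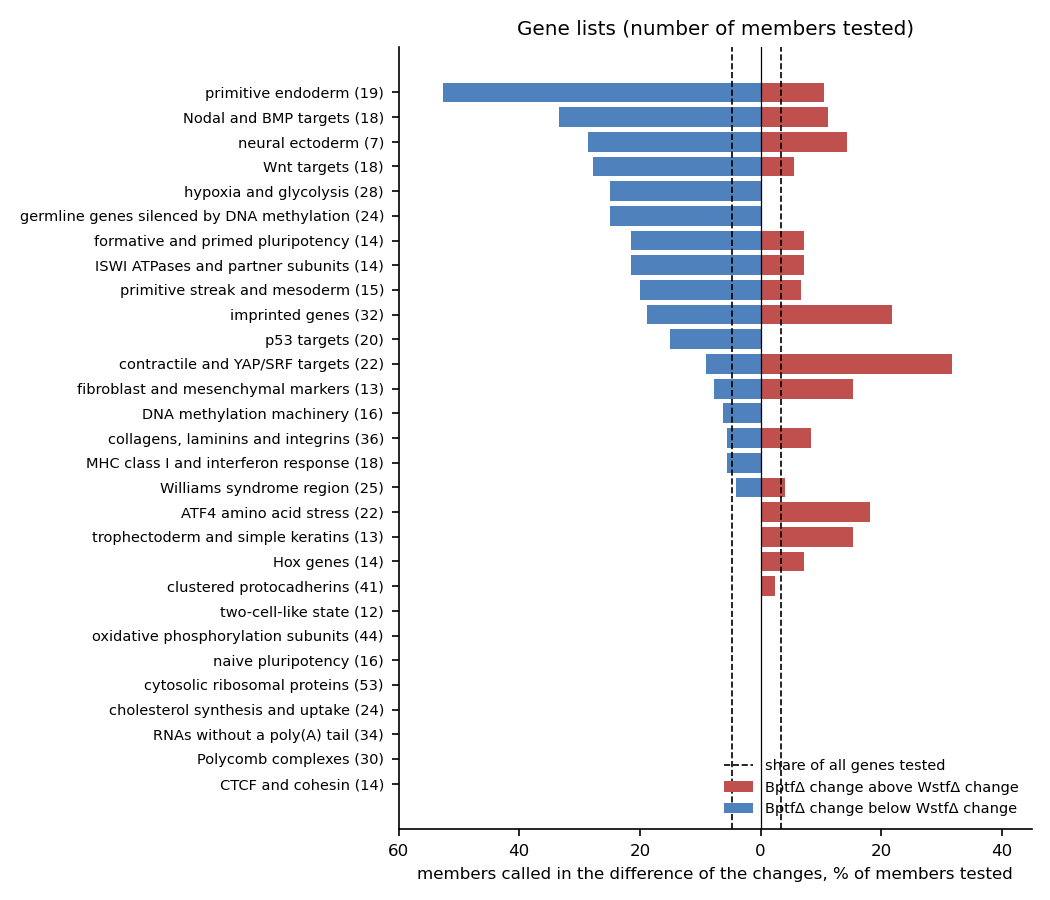
Bars give the percent of tested members of each list called in the difference, to the right where the change in BptfΔ lay above that in WstfΔ and to the left where it lay below, and dashed lines give the same shares over all genes (3.43% and 4.66%). Of the lists drawn, which leave out the Y-linked list with 4 genes tested, the primitive endoderm list reaches furthest to the left and the contractile list furthest to the right.

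Markers of other cell types were summed for each group. The 6 primitive endoderm markers summed to a mean of 325 normalised CPM in batch A WT, 134 in WstfΔ, 144 in batch C WT and 13.7 in BptfΔ, and the 4 trophectoderm markers to 15.8, 0.947, 4.99 and 0.796. The 4 fibroblast markers gave 16.7, 18.1, 7.49 and 2.83, the 4 mesoderm markers 7.06, 9.27, 6.34 and 16.1, and the 4 neural ectoderm markers 57.4, 56.5, 65.6 and 79.8. Neurog2 was at 0 in at least 1 library and at most 0.043, and Postn and Elf5 stayed under 0.2. The members of the mesoderm, fibroblast and neural sums did not move together. In the mesoderm sum the higher value in BptfΔ was that of Kdr, whereas T fell there and Mixl1 and Eomes were not called in that line. Eomes rose in WstfΔ (log2 1.05). In the fibroblast sum Col1a1 and Col3a1 fell in WstfΔ (log2 -1.49 and -3.91) while Thy1 rose. In the neural sum, most of which was Tubb3, Pax6 fell in both lines (-1.51 in BptfΔ, -2.02 in WstfΔ) and Sox1 rose in both (2.26 and 1.87). The part of such cells in the differences was not tested.

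Several genes called in BptfΔ alone held at most 3 counts in each BptfΔ library. Uty, on chromosome Y, was at 33.1 and 33.9 normalised CPM in batch A WT, 18.5 and 19.6 in WstfΔ, 45.7 and 48.0 in batch C WT and 0 in both BptfΔ libraries, at least 265-fold lower. Ddx3y, also on Y, was at least 530-fold lower in BptfΔ, and 3 of the 4 Y-linked genes tested were called in the difference (8.09% over all genes), with 4 down in BptfΔ and 1 in WstfΔ (8.59% and 6.57%). 2400006E01Rik, on chromosome 3, was at 4.46 and 4.61 in batch C WT and at least 25.7-fold lower in BptfΔ, with 4.35 and 4.65 in batch A WT and 4.41 and 4.90 in WstfΔ. Tktl2, a transketolase-like gene, was at least 7.62-fold lower and Upb1, a pyrimidine catabolism enzyme, at least 6.07-fold. Pla2g12b, a secreted phospholipase-like gene that fell in both lines, was at least 21.4-fold lower in BptfΔ (WstfΔ -1.84, SE 0.25). Col6a2, a collagen, was at least 4.25-fold lower in BptfΔ, and its call was lost when any of the 8 libraries was left out (fitted difference -3.44 to -7.15).

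Among genes that rose in BptfΔ alone, Ano1, a chloride channel gene, was at 0.630 and 0.992 in batch C WT and 13.2 and 13.5 in BptfΔ, against 0.399 and 0.990 in batch A WT and 0.722 and 0.659 in WstfΔ (difference 4.04, SE 0.54). Mgll, a lipase, rose from 0.682 and 0.584 to 6.76 and 6.12 (difference 5.23, SE 0.71). Grin2a, a glutamate receptor subunit, was at 3.53 and 4.10 in BptfΔ and under 0.31 in the other 6 libraries, and its call was lost without replicate 2 of batch A WT (difference 4.39 against 5.57). Fam189a1 was at least 10.1-fold higher in BptfΔ than in batch C WT, where it was at or under 3 counts, but at 0.678 and 0.732 in batch A WT. Mgat4c, a glycosyltransferase gene, lost its call in 5 of the 8 fits with 1 library left out, among them that without replicate 2 of batch C WT (difference 3.75). Irak3, a brake on innate signalling, rose in both lines, from 5.46 and 5.31 to 68.2 and 72.1 in BptfΔ and from 6.54 and 5.94 to 15.4 and 15.3 in WstfΔ (difference 2.41, SE 0.15). Grm4 and Tmem117 also rose further in BptfΔ (2.29, SE 0.47, and 2.21, SE 0.44).

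In WstfΔ alone, Cadps, of vesicle release, rose from 0.997 and 1.08 to 23.7 and 22.5, whereas it was at 0.682 and 0.700 in batch C WT and 0.479 and 0.578 in BptfΔ (difference -4.85, SE 0.51). Gm6402, a transcribed pseudogene, was at 41.7 and 42.8 in WstfΔ and under 0.48 in the other 6 libraries, and its call was lost without replicate 1 of batch C WT (difference -6.29 against -6.99). Ndufa4l2, a hypoxia-responsive mitochondrial gene that was in no list, was higher in BptfΔ (1.02 and 0.982) than in batch C WT (0.577 and 0.409). It was not called in BptfΔ, and in WstfΔ it rose from 0.199 and 0.258 to 9.75 and 6.95 (difference -4.16, SE 0.71). P2ry6, a nucleotide receptor (-2.96, SE 0.64), and Fitm1, of lipid droplets (-3.22, SE 0.86), rose there as well, and the call of Fitm1 was lost in 5 of 8 fits with 1 library left out, with -2.47 without replicate 1 of batch C WT as the lowest in size. Igsf21, Lims2 and Lrp1 rose in both lines and further in WstfΔ (-1.36, -1.21 and -1.16). The calls of Lims2 and Lrp1 were lost without replicate 1 of batch A WT (-0.90 and -0.93), and that of Lims2 stayed at -1.06 without replicate 2 of batch C WT, past the fold minimum but not the adjusted p.

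Among genes that fell in WstfΔ alone, Edn1, which encodes the vasoconstrictor endothelin 1, was at 12 and 13.1 in batch A WT and 0.289 and 0.366 in WstfΔ, against 2.52 and 2.80 in batch C WT and 2.39 and 2.43 in BptfΔ (difference 5.11, SE 0.45). Ptgs2, the inducible cyclooxygenase, was at 5.98 and 6.80, 0.289 and 0.439, 1.42 and 1.17, and 2.51 and 2.66 in the same order of groups (difference 5.11, SE 0.41). Both were called lower in batch C WT than in batch A WT. Gabrg3, a GABA receptor subunit, was at least 9.89-fold lower in WstfΔ than in batch A WT, with no call between the WT groups, and Kctd16 and Gm9732 were at least 3.86-fold and 3.27-fold lower. The call of Gm9732 was lost without replicate 2 of batch A WT, replicate 1 of WstfΔ or replicate 2 of BptfΔ (3.98, 3.62 and 4.16 against 4.54). How reads shared by near-identical genes were counted is not given in the sources used here, so Gm6402 and Gm9732 are uncertain.

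By position, genes with a lower change in BptfΔ were spread unevenly. On chromosome 6, 73 of 731 genes tested (9.99%) were called lower, against 4.66% over all genes, and on chromosome X 51 of 552 (9.24%). On X, 111 genes fell in BptfΔ and 70 in WstfΔ (8.59% and 6.57% over all genes). The median log2 change on X was -0.22 in BptfΔ and -0.24 in WstfΔ, and the median difference was 0.029, as over all genes. Between 70 and 100 Mb of chromosome 6, 49 of 185 genes were called lower and 2 higher, with a median log2 change of -0.81 in BptfΔ and 0.00 in WstfΔ. Gata2, a blood and trophoblast factor in that stretch, rose in WstfΔ from 11.8 and 10.5 to 32.4 and 32.8, and was at 9.71 and 8.93 in batch C WT and 5.21 and 7.40 in BptfΔ (difference -2.11, SE 0.22). Mgll lies in the same stretch and rose in BptfΔ. Without the genes of chromosomes 4, 6 and Y, 1103 were called in the difference, and all 41 genes called in opposite directions were still counted.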

How the data were processed

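RNA-seq was analysed in 24 mESC libraries, of which 8 enter the comparison. The authors aligned reads to mm10 with QuasR and deposited whole-number counts by knownGene (UCSC) gene model, not normalized. Strand and multi-mapping options are not given in the sources used here, and labels and methods name different TruSeq kits. Gene IDs of the 24594 rows were joined to RefSeq symbols (GRCm38.p6), which held 24570 of them.

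From the counts, filterByExpr by genotype left 15682 genes. edgeR 4.0.16 (R 4.3.3) fitted a quasi-likelihood model (legacy form, TMM factors) to all 24 libraries, in which batch and genotype were terms, as in the study's methods, and tested the Bptf coefficient minus the Wstf coefficient, with Benjamini-Hochberg adjustment over all genes. SEs are the absolute log2 value divided by the square root of F. Each library's total sets a floor of 3 counts (0.12 to 0.22 CPM). A group with both libraries at or under 3 counts gives a bound, taken against the mean floor of that group and covering counting error only.

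Members and gene lists were chosen with earlier results of these data known. Genes were named by a rule: Baz1b, Bptf, Smarca5, Smarca1 and Ctcf; the 5 (classes of 1 line or opposite direction) or 3 (same direction) largest called differences per class with a mean of at least 10 counts and ratios that do not overlap between the lines; and the extreme called member of each list. Other list members, and Tgfbr2, Tbx20, Itga8 and Casp8, were named after their values were seen. Some genes that the rule names are not reported here. The steps were tested on simulated data. Alternatives were edgeR's newer fit, DESeq2 1.42.0, 2 other scalings, 2 filters, 8 libraries only, no batch term, a replicate block, other fold minimums and leaving out libraries.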

Additional observations from a re-analysis of the deposited data

Results flagged for a closer look

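The changes of BptfΔ and WstfΔ against their own WT differed, by the test of the difference itself (edgeR, adjusted p under 0.01 and absolute log2 value over 1), at 1269 genes, and 41 of these were called in opposite directions. The 10 named genes of the latter kind had fitted log2 differences of 6.51 (Tex13b), 5.23 (Aspa), 4.76 (Btn1a1), 4.22 (Kdr), 3.94 (Kcnk2), -5.82 (Pdyn), -4.97 (Lefty2), -4.06 (Piwil4), -4.26 (Arhgap30) and -4.00 (Fgg). Those of Aspa, Btn1a1 and Pdyn depend on the prior count, because 1 group of each held at most 3 counts per library. That of Fgg also rests on few counts, at 0.239 and 0 normalised CPM in BptfΔ. No group held 4 or more libraries, so single libraries were not screened.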

How the results depend on the processing

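The counts called in the difference, in opposite directions, in BptfΔ, in WstfΔ and between the WT groups stayed within 1.5 times their values under edgeR's newer fit, DESeq2, both other scalings, both filters and with the 8 libraries only. A test against a 2-fold change left 397 genes in the difference, 4 in opposite directions (0 up in BptfΔ and 4 up in WstfΔ, in place of 24 and 17), 999 in BptfΔ, 615 in WstfΔ and 445 between the WT groups, and no fold minimum gave 3323, 367, 6523, 5444 and 4996. These follow from the threshold itself. Without a batch term, 1341 genes were called in the difference, 27.1% of them higher in place of 42.4%, 19 in opposite directions, 2368 in BptfΔ and 500 in WstfΔ. There Slco2a1 (-0.27) and Sparc (-0.36) turned sign, since the lines are then compared directly and WT shifts between batches enter. Leaving out 1 library gave 1108 to 1171 genes in the difference, 35 to 39 in opposite directions, 1866 to 2160 in BptfΔ, 1360 to 1630 in WstfΔ and 993 to 1158 between the WT groups. A group left with 1 library is assumed to vary like the others. With the replicate number as a block, 1166, 38, 2093 and 1571 were called, and the block was not needed because same-numbered libraries did not deviate together (r = 0.097 in batch A and -0.082 in batch C, over 10646 genes). Neither it nor the fit without batch gives a WT contrast. Without genes called between the WT groups, 1085 and 33 remained, and, chosen after seeing the data, 1266 without chromosome Y and RNAs lacking a poly(A) tail, and 1217 and 38 with at least 10 counts in each WT group. Of 1346 values of the 71 named genes under alternatives, 1253 kept direction and side of the threshold, 91 lost the call and 2 turned sign. Depth limits genes at or under 3 counts, for which only bounds are given.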
